A study of Rattus norvegicus with 10 samples.

Results

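The comparison described here sets 2 libraries of rat hippocampal cultures collected 10 min after a chemical long-term potentiation (cLTP) stimulus against 2 libraries of mock-treated cultures. These are 4 of the 10 libraries of the series, and all 11615 genes of the deposited table were compared. The cultures were Wistar hippocampal neurons at day 15 in vitro. The 10 min cultures had received the cLTP solution and the mock cultures a mock-cLTP solution. The sources used here give neither the composition of these solutions nor the time of mock collection. In both groups 5-fluoro-2-deoxyuridine and uridine had been added early in culture to hold back glia, ribosomal RNA had been depleted, and poly(A) RNA had been selected in 3 rounds on oligo(dT) beads. The labels call the 2 samples of a group biological repeats, and p-values measure the spread between such repeats. The series also holds 2 libraries each at 5, 60 and 120 min, which entered the fit and give the course of the genes named here.

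cLTP protocols raise synaptic activity across a whole dish. Calcium entering through glutamate receptors and voltage-gated channels activates kinases that phosphorylate transcription factors already present in the nucleus, chiefly CREB, which binds the cAMP response element (CRE), and the partners of serum response factor (SRF), which binds the CArG box. Immediate-early genes are the genes these factors switch on without new protein synthesis. They encode transcription factors such as the FOS, JUN, EGR and NR4A families, inhibitors that end the signal, and a few effectors that act at synapses, Arc among them.

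Promoters of 8833 measured genes were found by symbol in the RefSeq table for the rat assembly GRCr8, each reaching from 250 bases before to 50 bases after the gene's start. The CRE TGACGTCA stood in 3.27% of them, its core TGACG (which the full CRE contains) in 32.03%, the CArG box in 1.18%, the AP-1 site TGACTCA in 3.25% and the TATA box TATAAA in 6.4%, with both strands searched. Among the called genes and the largest rises at 10 min, 8 had an entry; 5 of these held the core and 1 each the full CRE, the CArG box and the TATA box, while 0 held the AP-1 site. Among the largest falls 11 had an entry, and 0 of these held any of the 5 motifs. A match is a run of letters and not evidence of binding. The 4 promoters shown belong to the 2 called genes with an entry and to 2 of the largest rises, one with a pair of TGACG cores and one with a CArG box; capitals mark the motif letters, and each sequence runs 5′ to 3′ on the gene's own strand.
Junb (chr19:40080876-40081175, plus strand; TGACG from base -155 and TATAAA from base -49, counted from the start): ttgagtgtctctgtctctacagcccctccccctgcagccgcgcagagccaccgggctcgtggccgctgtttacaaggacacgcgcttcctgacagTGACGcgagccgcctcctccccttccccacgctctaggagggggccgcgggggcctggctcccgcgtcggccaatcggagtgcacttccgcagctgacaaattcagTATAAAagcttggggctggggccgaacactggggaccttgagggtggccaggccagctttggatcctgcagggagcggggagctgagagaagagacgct
Ier2 (chr19:40399123-40399422, plus strand; TGACGTCA from base -66): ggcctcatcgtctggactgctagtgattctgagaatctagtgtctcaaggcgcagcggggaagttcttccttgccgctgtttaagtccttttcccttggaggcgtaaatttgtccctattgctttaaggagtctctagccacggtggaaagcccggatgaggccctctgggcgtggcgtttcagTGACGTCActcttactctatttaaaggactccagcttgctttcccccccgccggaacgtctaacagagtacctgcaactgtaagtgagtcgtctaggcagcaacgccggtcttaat
Egr4 (chr4:119607768-119608067, minus strand; TGACG on the other strand, its letters spanning bases -178 to -174 and -110 to -106): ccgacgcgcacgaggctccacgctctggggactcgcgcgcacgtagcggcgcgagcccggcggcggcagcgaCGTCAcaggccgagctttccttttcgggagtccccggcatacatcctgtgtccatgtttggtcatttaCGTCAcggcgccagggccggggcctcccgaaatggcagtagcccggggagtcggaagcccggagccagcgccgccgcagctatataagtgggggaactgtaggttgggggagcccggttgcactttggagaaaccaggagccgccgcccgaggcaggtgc
Zfp36 (chr1:92799059-92799358, minus strand; CArG box from base -32): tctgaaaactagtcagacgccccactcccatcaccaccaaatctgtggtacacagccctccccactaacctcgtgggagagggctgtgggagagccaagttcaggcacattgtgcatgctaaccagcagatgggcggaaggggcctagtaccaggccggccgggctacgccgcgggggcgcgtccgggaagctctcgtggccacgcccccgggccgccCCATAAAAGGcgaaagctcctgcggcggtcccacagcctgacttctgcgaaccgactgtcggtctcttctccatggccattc

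Depth was 54040657 and 37615501 reads in the 10 min libraries and 36585716 and 36708054 reads in the mock libraries, and 32961534 to 42933638 reads in the other 6. The smallest CPM of a library stood for 9 to 20 reads, and rarer transcripts were not analysed here. The label of neuronal cultures held for neurons, beside which other cells were plain. Map2, a dendritic microtubule protein, was at 803 and 703 CPM (depth-normalised reads, scaled between libraries) at 10 min and at 840 and 920 CPM in mock. Slc17a7, the vesicular glutamate transporter, was at 868 and 823 CPM at 10 min and at 866 and 908 CPM in mock, and Gad1, which makes GABA, at 475 and 452 CPM at 10 min and at 482 and 481 CPM in mock. The astrocyte filament gene Gfap, above all of these, summed with 15 other astrocyte markers to 26393 and 27138 CPM at 10 min and to 25874 and 25911 CPM in mock. Markers of microglia, oligodendrocytes, fibroblasts and cycling cells were also among the measured genes. As the smallest values stood for 9 reads or more, no measured marker could be at 0. Of 16 listed fibroblast and vascular markers 13 were measured, and of 15 listed oligodendrocyte markers 14.

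At 10 min 4 transcripts passed the test over all genes, and all 4 were higher than in mock (4 of 11615, 0.0344%). They were Junb and Jun, which encode DNA-binding partners of FOS in the AP-1 complex, Ier2, a short nuclear immediate-early protein, and Arc, which controls the removal of AMPA receptors from synapses. A gene was called at a limma adjusted p under 0.05 on log2(CPM + 1), a scale that understates the change of low genes. No gene was called lower (0%); limma-voom also called 0 lower, while 537 genes had an unadjusted limma p under 0.05 in the higher direction (4.62%) and 611 in the lower (5.26%). The calls depended on single libraries: without 10 min replicate 2, 0 genes were called higher (Junb at a limma adjusted p of 0.052), without any 1 of the other 10 min, mock, 60 min or 120 min libraries Junb was the 1 gene called higher, and without either 5 min library 9 genes were called higher and 3 lower. In the lower direction 1 gene also passed without 10 min replicate 1 (Ago2, named after its values were seen) and 1 without mock replicate 1 (Bc1). Differences were small: the 1st and 99th percentiles of the log2 difference over all genes were -0.29 and 0.28. Counted on CPM + 1, the scale of every fold given here, 9 genes were higher and 1 lower by 1.5-fold or more. On plain CPM the folds of low genes are larger.

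Junb (chromosome 19, 26092972 to 26094756, minus strand, rn6) stood at 119 and 122 CPM at 10 min, against 71.9 and 74.6 CPM in mock. The groups lay well apart and the repeats within each close together. The 10 min values rested on 6536 and 4657 reads, the mock values on 2679 and 2779. Junb rose 1.63-fold (120 ± 2.3 at 10 min against 73.2 ± 1.9 in mock, SD, n = 2 each; log2 difference 0.71, SE 0.06, limma adjusted p = 0.0012). It was called in 19 of 21 alternative fits, with adjusted p from 2e-05 to 0.054. Its mean was 83.6 CPM at 5 min, 335 at 60 min and 121 at 120 min, so that the 10 min level lay on the way to a later maximum.

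Ier2 (chromosome 19, 25774146 to 25775670, minus strand, rn6) lies on the same chromosome as Junb, with a promoter that holds the full CRE printed above. It stood at 32.2 and 33.9 CPM at 10 min, against 19.5 and 19.2 CPM in mock, again without overlap. Ier2 rose 1.67-fold (33.1 ± 1.2 at 10 min against 19.4 ± 0.16 in mock, SD, n = 2 each; log2 difference 0.74, SE 0.09, limma adjusted p = 0.019). It was called in 12 of 21 alternative fits. Its mean was 146 CPM at 60 min and 36.9 at 120 min.

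Jun (chromosome 5, 114011186 to 114014277, minus strand, rn6) stood at 219 and 202 CPM at 10 min, against 158 and 151 CPM in mock. Its lower 10 min library was well above the higher mock library. The rise was 1.36-fold (211 ± 12 at 10 min against 154 ± 5.4 in mock, SD, n = 2 each; log2 difference 0.45, SE 0.06, limma adjusted p = 0.048). Arc (chromosome 7, 115907097 to 115910541, minus strand, rn6) stood at 38.0 and 41.8 CPM at 10 min, against 30.4 and 27.6 CPM in mock. It also rose 1.36-fold (39.9 ± 2.7 at 10 min against 29.0 ± 2.0 in mock, SD, n = 2 each; log2 difference 0.45, SE 0.06, limma adjusted p = 0.048). Both genes sat at the threshold: Jun was called in 6 and Arc in 5 of 21 alternative fits, and neither under limma-voom. Arc differed from the other 3 later on, with means of 77.3 CPM at 60 min and 74.0 CPM at 120 min, while Jun had 543 and 238 CPM at those times.

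**Figure D1:**
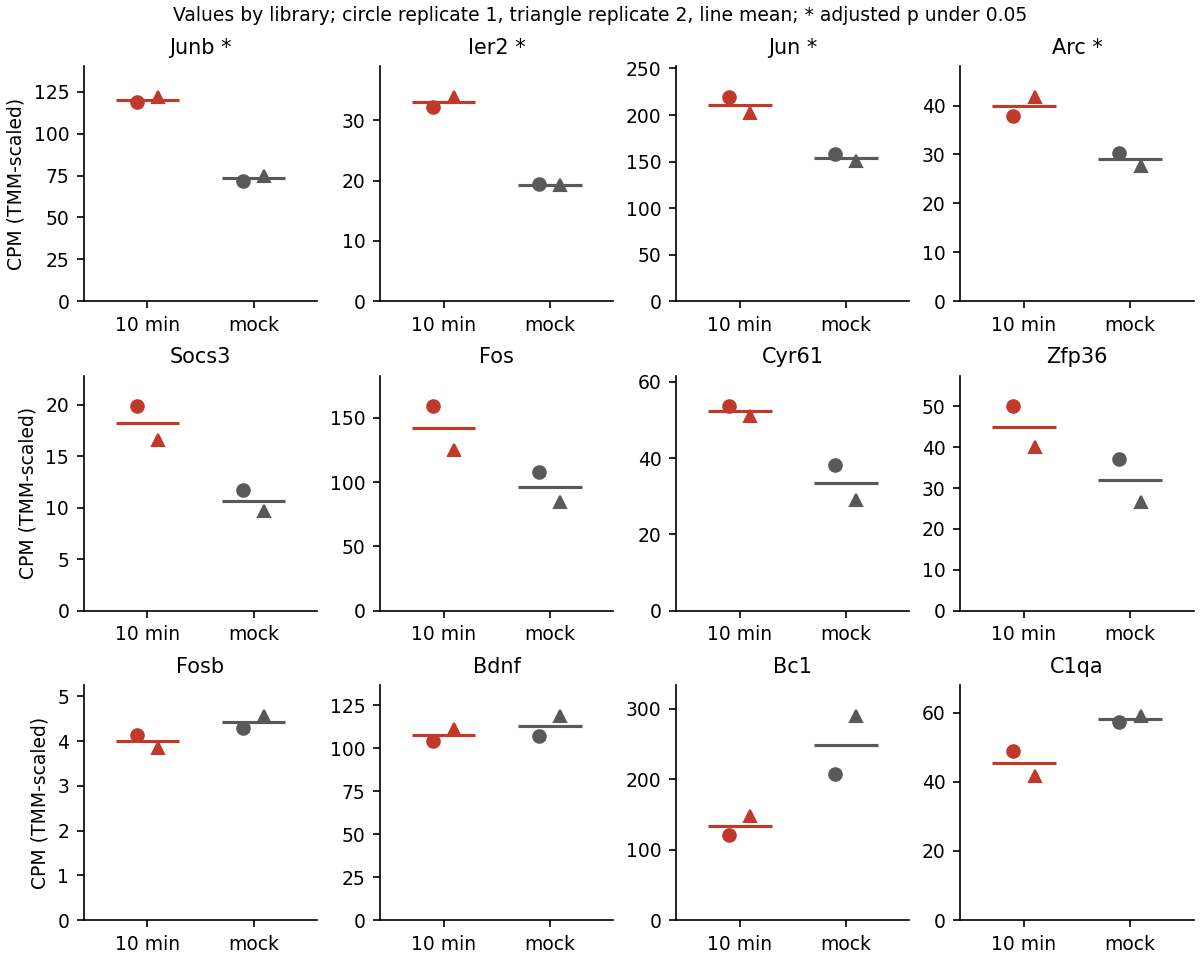
TMM-scaled CPM of 12 genes in each 10 min library (red) and each mock library (grey), with the group mean as a line; stars mark limma adjusted p under 0.05. Junb, Ier2, Jun and Arc are separate with tight repeats; Socs3, Fos, Cyr61 and Zfp36 are separate with wider repeats, and Bdnf overlaps.

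Immediate-early transcription factors held 3 of the 4 called genes. Of 36 listed, all measured, 3 were called higher (Junb, Ier2 and Jun) and 0 lower. In 21 of them (58.3%) both 10 min libraries lay above both mock libraries and in 6 (16.7%) below, beside 21.3% and 21.4% of all genes. The median log2 difference of the list was 0.17 at 10 min, beside 0.00 over all genes; at 5 min it was 0.06 and at 60 min 1.93, when 35 of the 36 were called higher than mock. The authors' deposited table, made from the same libraries, calls 9 of the 36 higher and 0 lower at an adjusted p under 0.05, beside 0.577% of all genes higher and 0.56% lower.

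Fos, the classical marker of neuronal activity, stood at 159 and 125 CPM at 10 min, against 108 and 84.7 CPM in mock. The groups did not overlap, but replicate 1 exceeded replicate 2 in both, so that the repeats were far apart within each group (142 ± 24 at 10 min against 96.2 ± 16 in mock; log2 difference 0.56, SE 0.15, limma adjusted p = 0.30). In the authors' deposited table its adjusted p is 0.00048. The same tilt between repeats was seen in Nr4a1, an orphan nuclear receptor whose values were 25.2 and 21.0 CPM at 10 min, against 18.4 and 15.0 CPM in mock (log2 difference 0.44, limma adjusted p = 0.30). Egr1, a zinc-finger factor, had 41.2 and 36.1 CPM at 10 min, against 33.8 and 30.2 CPM in mock (log2 difference 0.26, limma adjusted p = 0.31).

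The remaining factors ranged from clearly above mock to flat. Cebpd, a C/EBP factor, stood at 45.8 and 54.2 CPM at 10 min, against 33.6 and 36.0 CPM in mock (limma adjusted p = 0.24), and Egr4, whose promoter is printed above, at 5.79 and 5.79 CPM at 10 min, against 3.63 and 4.21 CPM in mock (limma adjusted p = 0.31). Klf6, a Krüppel-like factor, stood at 171 and 176 CPM at 10 min, against 154 and 142 CPM in mock (limma adjusted p = 0.23). None of these overlapped between groups, and none passed. Named after their values were seen, Myc (log2 difference 0.33), Jund (0.34), Klf4 (0.20) and Atf3 (0.20) were also separate and above mock, with limma adjusted p from 0.24 to 0.31.

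Some factors that were far above mock at 60 min differed little from it at 10 min. Fosb, the FOS family member whose product is long-lived, stood at 4.14 and 3.85 CPM at 10 min, against 4.30 and 4.56 CPM in mock (log2 difference -0.12, limma adjusted p = 0.67), and had a mean of 88.1 CPM at 60 min. Npas4, an activity-dependent bHLH-PAS factor, was separate and above mock without passing, at 10.4 and 9.27 CPM at 10 min, against 8.38 and 7.51 CPM in mock (log2 difference 0.28, limma adjusted p = 0.52). Also named after their values were seen, Maff and Egr2 overlapped between groups at 10 min (log2 differences 0.08 and 0.09) and had means of 88.5 and 37.4 CPM at 60 min, while Bhlhe40 and Klf10 lay below mock (-0.14 and -0.16) and had means of 240 and 74.7 CPM at 60 min.

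**Figure D2:**
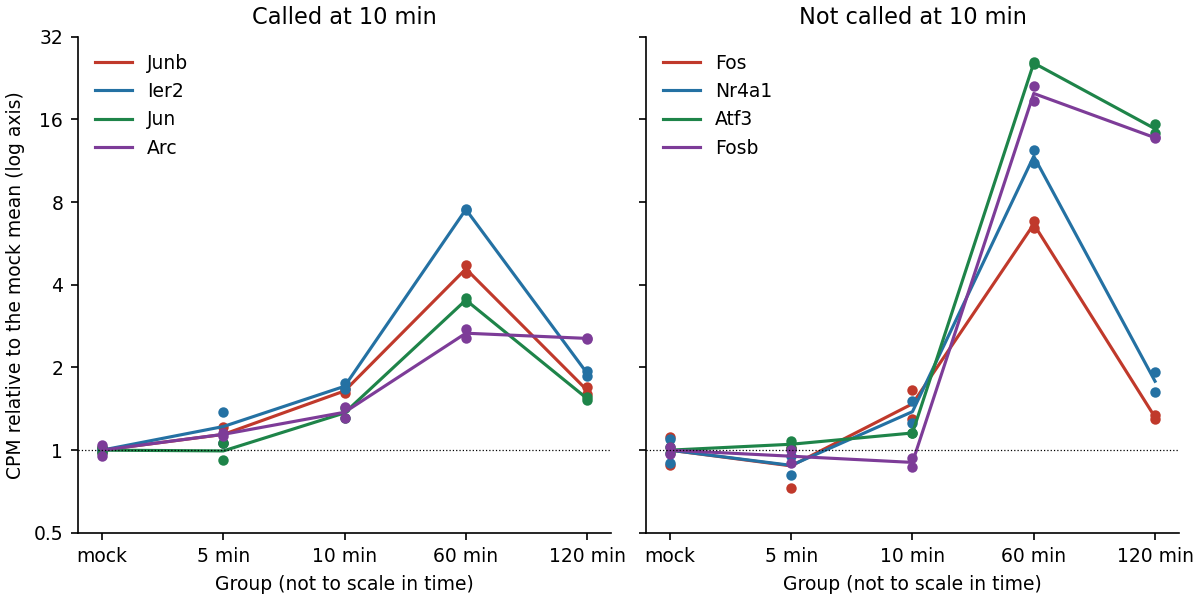
CPM relative to the mean of the mock libraries (log axis) for each library in the 5 groups, with group means joined; groups are not spaced by time. The called genes (left) and Fos and Nr4a1 lie above mock at 10 min, while Atf3 (19.5 CPM at 10 min, 16.9 in mock) and Fosb (4.00 at 10 min, 4.43 in mock) stay near 1 until 60 min.

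Feedback regulators are the inhibitors induced beside these factors. Of 36 measured of 39 listed, 0 were called in either direction by limma or limma-voom (12 were higher and 2 lower at an unadjusted limma p under 0.05), 16 were separate and above mock (44.4%) and 9 separate and below (25%), beside 21.3% and 21.4% of all genes; the median was 0.07. At an unadjusted limma p under 0.05, 4.62% of all genes were higher and 5.26% lower. The authors' deposited table calls 7 of the feedback regulators higher and 0 lower. Socs3, a brake on cytokine receptors, stood at 19.8 and 16.5 CPM at 10 min, against 11.7 and 9.63 CPM in mock. Its log2 difference of 0.72 lay beside the 0.71 of Junb, with repeats wider apart (SE 0.12, limma adjusted p = 0.11). Ppp1r15a, a phosphatase subunit that restores translation after stress, stood at 53.0 and 51.0 CPM at 10 min, against 42.6 and 42.5 CPM in mock (log2 difference 0.28, limma adjusted p = 0.11). Ier3, a short stress-response protein, stood at 34.1 and 33.7 CPM at 10 min, against 25.4 and 24.1 CPM in mock (0.44, limma adjusted p = 0.15), and Gadd45g at 24.7 and 25.9 CPM at 10 min, against 19.2 and 19.2 CPM in mock (0.38, limma adjusted p = 0.25). Repeats within a group were close for these 3. Socs3 and these 3 passed in the fit without the 5 min libraries.

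Other brakes had the replicate tilt of Fos. Zfp36, which targets AU-rich messenger RNAs for decay and whose promoter holds the CArG box, stood at 50.01 and 39.97 CPM at 10 min, against 37.2 and 26.7 CPM in mock (log2 difference 0.49, limma adjusted p = 0.32). Dusp1, a phosphatase of MAP kinases, stood at 40.6 and 32.2 CPM at 10 min, against 29.2 and 22.9 CPM in mock (0.47, limma adjusted p = 0.37). In both, the lower 10 min library exceeded the higher mock library by less than the distance between repeats. Nfkbia, the inhibitor of NF-kB, and Btg2, an antiproliferative cofactor, both named after their values were seen, had log2 differences of 0.25 and 0.28 without overlap (limma adjusted p = 0.26 and 0.36).

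Among 36 measured activity-regulated effectors (38 listed), Arc was the 1 called gene, 9 members were separate and above mock and 9 below (25% each, near the 21.3% and 21.4% of all genes), and the median was 0.01. Vgf, a secreted neuropeptide precursor, stood at 258 and 248 CPM at 10 min, against 217 and 203 CPM in mock (log2 difference 0.27, limma adjusted p = 0.19). Bdnf, the neurotrophin, stood at 104 and 111 CPM at 10 min, against 107 and 119 CPM in mock, and overlapped (-0.07, limma adjusted p = 0.88). Homer1, a postsynaptic scaffold, stood at 89.0 and 86.8 CPM at 10 min, against 92.5 and 97.95 CPM in mock (-0.11, limma adjusted p = 0.57), and the pentraxin Nptx2 at 28.4 and 31.4 CPM at 10 min, against 27.5 and 33.1 CPM in mock (-0.02, limma adjusted p = 0.98). Of these 4 effectors only Vgf stood above mock without overlap.

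The next list joined targets of SRF with targets of YAP, a coactivator of the Hippo pathway. Of 17 measured of 22 listed, 10 were separate and above mock (58.8%) and 1 below (5.88%), beside 21.3% and 21.4% of all genes, with a median of 0.06. By limma and limma-voom 0 were called in either direction. At an unadjusted limma p under 0.05, 5 were higher and 0 lower, beside 4.62% and 5.26% of all genes. The authors' deposited table calls 3 higher. The matricellular genes led. Cyr61 stood at 53.6 and 51.0 CPM at 10 min, against 38.1 and 28.9 CPM in mock, with mock repeats far apart (log2 difference 0.64, SE 0.20, limma adjusted p = 0.35). Ctgf stood at 149 and 164 CPM at 10 min, against 114 and 107 CPM in mock (0.49, limma adjusted p = 0.31), and Thbs1 at 31.4 and 33.8 CPM at 10 min, against 24.4 and 23.9 CPM in mock (0.42, limma adjusted p = 0.24). The cell type behind these values was not tested.

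**Figure D3:**
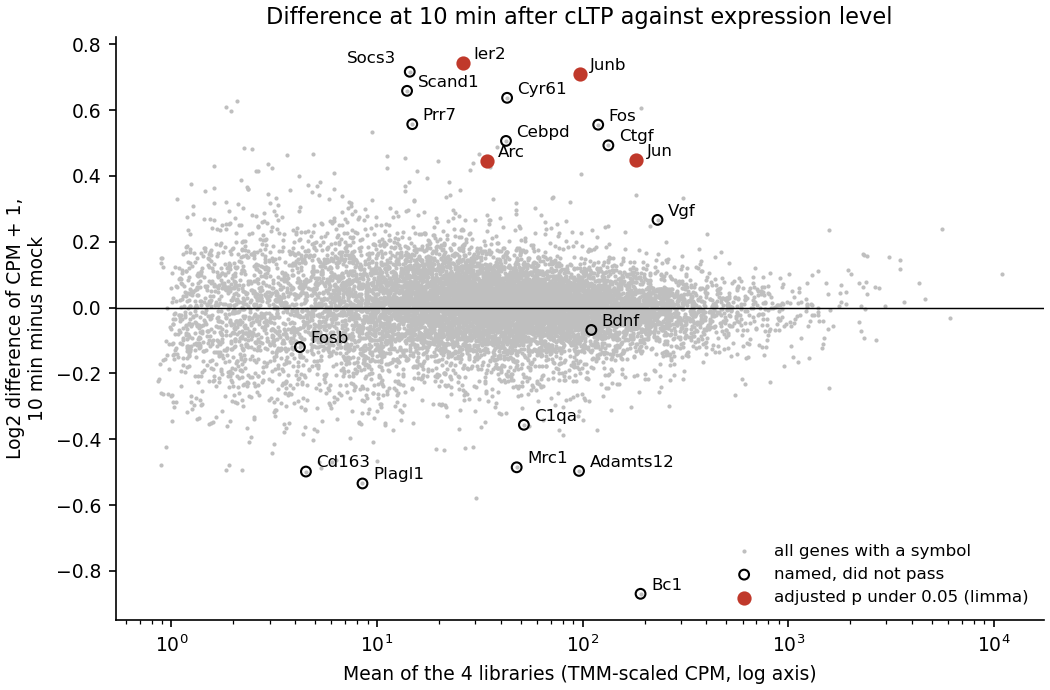
Log2 difference of CPM + 1, 10 min minus mock, against the mean CPM of the 4 libraries (log axis), 1 point per gene with a symbol; red points passed limma and circled points are named genes that did not. Ier2 (0.74), Junb (0.71), Jun and Arc (0.45 each) lie near the top, beside Socs3 (0.72), and Bc1 (-0.87) lies at the bottom.

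A wider set of genes was chosen by the 60 min against 5 min difference, which uses neither the 10 min nor the mock libraries. The 10 min and mock libraries did enter the fit behind its p-values. At 60 min against 5 min, 127 genes were called and at least 2-fold higher. At 10 min 56 of them (44.1%) were separate and above mock, beside 21.3% of all genes, and 15 (11.8%) below; the median log2 difference was 0.10. The genes differed by the distance from start to end of the gene. Of 49 spanning under 5 kb, 35 (71.4%) were separate and above mock and 0 below, with a median of 0.25 (25th to 75th percentile 0.12 to 0.41). Of 54 spanning 5 to 20 kb, 17 (31.5%) were above and 11 (20.4%) below, with a median of 0.03, and of 21 spanning 20 to 60 kb, 4 were above and 4 below (19.0% each), with a median of -0.03. Only 3 spanned over 60 kb. The shorter genes were also the more strongly induced. The median log2 difference at 60 against 5 min was 2.25 under 5 kb, 1.53 at 5 to 20 kb and 1.24 at 20 to 60 kb. From a 3-fold cut it was 2.56 under 5 kb and 2.71 at 5 to 20 kb. Of those genes 76.5% and 40% were separate and above mock. The parts of span and of strength of induction were not tested.

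Span also moved with the difference over all genes, though by less. Of 1543 genes under 5 kb 33.6% were separate and above mock and 11.0% below (median 0.04). Of 2684 genes over 60 kb 11.4% were above and 37.4% below (median -0.04). At 5 min against mock these 2 medians were already 0.057 and -0.022. By 10 min library, replicate 1 then replicate 2, they were 0.022 and 0.057 under 5 kb, and -0.023 and -0.065 over 60 kb. The later-induced short genes were thus set against short genes in general, 71.4% against 33.6%. Arc, Jun, Junb, Ier2 and Fos span 3.44, 3.09, 1.78, 1.52 and 2.87 kb, whereas Fosb, Maff, Gem and Atf3 span 6.73, 11.4, 14.2 and 31.7 kb. Among the short genes, Egr2, at 4.29 kb, overlapped between groups. Nrarp, a Notch inhibitor of 2.55 kb that had a mean of 71.5 CPM at 60 min, was separate and above mock at 1.62 and 1.41 CPM at 10 min, against 0.940 and 1.13 CPM in mock (limma adjusted p = 0.43; named after its values were seen). In 39 genes the deposited span was shorter than the deposited length, and these were left out of the span counts.

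**Figure D4:**
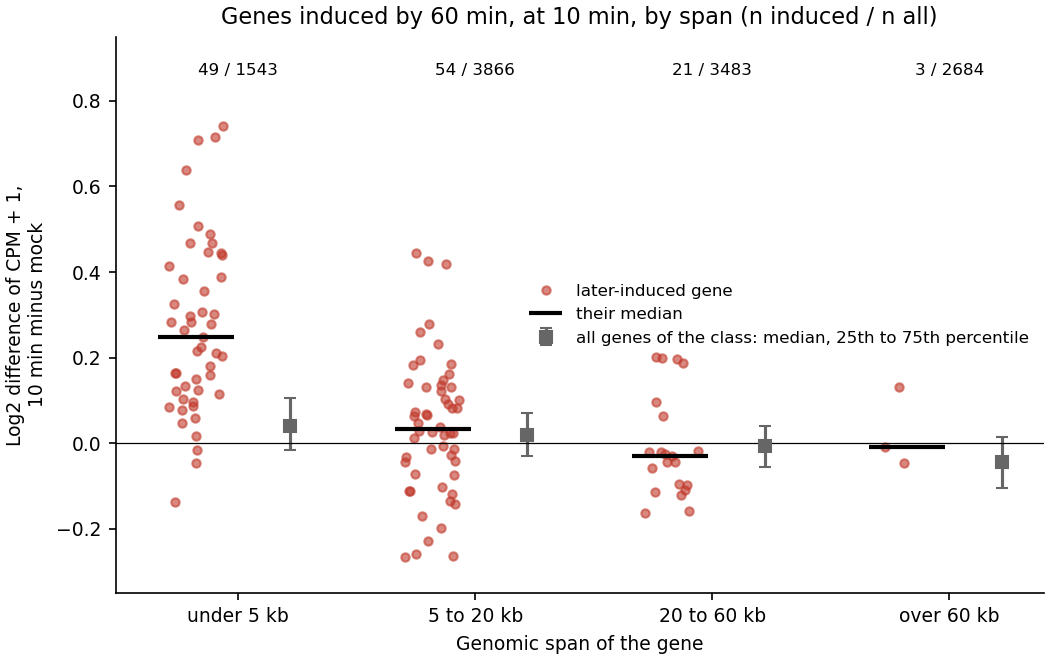
Log2 difference at 10 min of the 127 genes induced at 60 against 5 min (red points, black line at their median) by genomic span, with the median and the 25th to 75th percentile of all genes of the class in grey. The medians of the induced genes were 0.25, 0.03, -0.03 and -0.01 from the shortest to the longest class, and those of all genes 0.04, 0.02, -0.01 and -0.04.

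No gene passed in the lower direction, and the largest fall was in a noncoding RNA. Bc1, a short RNA polymerase III transcript that is carried into dendrites and represses translation there, stood at 121 and 147 CPM at 10 min, against 207 and 290 CPM in mock (log2 difference -0.87, SE 0.13, limma adjusted p = 0.084). The groups did not overlap, with mock repeats far apart, and Bc1 was also low at 60 min (144 and 167 CPM) but not at 5 min (244 and 267 CPM). It spans 0.153 kb and is not a polyadenylated messenger RNA, while the libraries were selected for poly(A); the part of that selection in its level was not tested. Bc1 was called lower in 5 of 21 alternative fits, among them those without the 5 min libraries and without mock replicate 1. The authors' deposited table calls it lower (adjusted p = 4.8e-09). Plagl1, an imprinted zinc-finger gene, stood at 7.21 and 6.31 CPM at 10 min, against 10.5 and 9.98 CPM in mock (log2 difference -0.53, limma adjusted p = 0.18). Adamts12, an extracellular protease, stood at 75.8 and 82.8 CPM at 10 min, against 101 and 124 CPM in mock (-0.50, limma adjusted p = 0.30), and the cation channel gene Trpm3 at 25.6 and 24.1 CPM at 10 min, against 31.95 and 35.49 CPM in mock (-0.42, limma adjusted p = 0.23).

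Several of the falls were in macrophage genes. The scavenger receptor Cd163 stood at 3.83 and 3.27 CPM at 10 min, against 4.73 and 6.20 CPM in mock (log2 difference -0.50, limma adjusted p = 0.31), and the mannose receptor Mrc1 at 40.6 and 38.6 CPM at 10 min, against 51.8 and 60.1 CPM in mock (-0.49, limma adjusted p = 0.21). The complement genes C1qa and C1qb stood at 49.0 and 41.8 CPM and at 46.6 and 43.9 CPM at 10 min, against 57.4 and 59.1 CPM and 55.7 and 56.5 CPM in mock (limma adjusted p = 0.19 and 0.15). All of these were separate and none passed. Of 19 microglia and macrophage markers 0 were called by limma or limma-voom, with 0 higher and 11 lower at an unadjusted limma p under 0.05. Over all genes the unadjusted shares were 4.62% higher and 5.26% lower. Of the 19, 14 (73.7%) were separate and below mock and 0 above, beside 21.4% and 21.3% of all genes, with a median of -0.24. Summed, the 19 markers stood at 448.9 and 428.5 CPM at 10 min and at 506.2 and 513.1 CPM in mock. The sum was 477.4 and 465.4 CPM at 5 min and 453.1 and 485.4 CPM at 60 min. Other markers of the list overlapped between groups: P2ry12 was at 1.45 and 1.02 CPM at 10 min, against 1.10 and 1.34 CPM in mock, and Tmem119 at 3.29 and 3.48 CPM at 10 min, against 2.93 and 3.68 CPM in mock; both were named after their values were seen. In whole cultures fewer cells of a type and less RNA per cell cannot be told apart.

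Fibroblast and vascular genes were divided. Of 13 measured of 16 listed, 8 (61.5%) were separate and below mock and 2 (15.4%) above, with a median of -0.14. Over all genes 21.4% were below and 21.3% above. Bgn, a matrix proteoglycan, stood at 56.5 and 56.9 CPM at 10 min, against 72.4 and 71.9 CPM in mock (log2 difference -0.34, limma adjusted p = 0.24). Vim, an intermediate filament of glia and fibroblasts, ran the other way, at 5787 and 6280 CPM at 10 min, against 5195 and 5014 CPM in mock (0.24, limma adjusted p = 0.25). Astrocyte markers had a median of 0.00, with 4 of 16 above (25%) and 6 below (37.5%). Oligodendrocyte markers had a median of 0.08, with 4 of 14 above (28.6%) and 3 below (21.4%). Cycling genes had a median of 0.05, with 4 of 16 above (25%) and 2 below (12.5%).

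Lists of neuronal genes leaned below mock by small amounts, with 0 members called by limma or limma-voom in either direction. At an unadjusted limma p under 0.05, 6 GABAergic, 7 presynaptic, 5 postsynaptic, 4 glutamate receptor and 3 upstream signalling genes were lower, and 1 GABAergic and 1 upstream signalling gene higher. Of 25 GABAergic genes 16 (64.0%) were separate and below mock and 1 above (median -0.09), of 28 presynaptic genes 14 (50%) and 0 (median -0.09), and of 28 postsynaptic genes 13 (46.4%) and 3 (median -0.08). Of 30 measured glutamate receptor genes (31 listed) 10 (33.3%) were below and 0 above (median -0.06), and of 29 measured kinases and activators upstream of the response (32 listed) 13 (44.8%) were below and 1 above (median -0.07). Of 16 measured excitatory neuron genes (19 listed) 5 (31.25%) were below and 1 (6.25%) above (median -0.05). Over all genes 21.4% were below and 21.3% above. At an unadjusted limma p under 0.05, 5.26% of all genes were lower and 4.62% higher. Gabra2, a GABA-A receptor subunit, stood at 136 and 134 CPM at 10 min, against 155 and 162 CPM in mock (log2 difference -0.23, limma adjusted p = 0.24), and Shank1, a postsynaptic scaffold, at 90.7 and 79.1 CPM at 10 min, against 103 and 101 CPM in mock (-0.27, limma adjusted p = 0.25). The transcription factor gene Creb1 stood at 12.1 and 9.90 CPM at 10 min, against 12.5 and 13.9 CPM in mock (-0.25, limma adjusted p = 0.50). Most of these lists hold long genes. The median span was 55.0 kb for GABAergic, 52.4 kb for presynaptic, 65.1 kb for postsynaptic and 215 kb for glutamate receptor genes. It was 49.2 kb for the upstream signalling genes but 8.62 kb for the excitatory neuron genes, against 22.2 kb over all genes. Beside the 37.4% of all genes over 60 kb that lay below mock, the part of span in these shares was not tested. The second 10 min library lay lower than the first, with sums of 6443 and 6084 CPM at 10 min over the presynaptic list, against 6526 and 6780 CPM in mock.

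Housekeeping lists had shorter median spans than all genes. Ribosomal protein genes (48 measured of 54 listed, median span 3.44 kb) had 15 members (31.2%) above and 3 (6.25%) below, with a median of 0.02. Of all genes under 5 kb 33.6% were above and 11.0% below. Oxidative phosphorylation genes (42 of 43, median span 8.07 kb) had 15 (35.7%) above and 4 (9.52%) below, with a median of 0.04. Of all genes of 5 to 20 kb 26.7% were above and 13.9% below. The part of span in the shares of these lists was not tested. By limma and limma-voom 0 were called in either direction. At an unadjusted limma p under 0.05, 2 ribosomal and 3 oxidative phosphorylation genes were higher and 0 lower. Over all genes these shares were 4.62% and 5.26%. Of 21 heat shock genes (22 listed) 5 were above (23.8%) and 3 below (14.3%), beside 21.3% and 21.4% of all genes. Hspb1, a chaperone of the cytoskeleton, stood at 329 and 358 CPM at 10 min, against 272 and 273 CPM in mock (log2 difference 0.33, limma adjusted p = 0.24), but was at a mean of 328 CPM at 5 min as well. Of 25 genes of the ATF4 and unfolded protein responses 8 were above (32%) and 4 below (16%), with a median of 0.02. Of 18 measured NF-kB and inflammatory genes (23 listed) 14 were called higher than mock at 60 min. At 10 min 5 were above (27.8%) and 2 below (11.1%), with a median of 0.05. None was called, while 5 were higher and 1 lower at an unadjusted limma p under 0.05, beside 4.62% and 5.26% of all genes. Icam1 and Rela were separate and above mock (log2 differences 0.18 and 0.14, limma adjusted p = 0.31 and 0.32). Il1b was separate and below (-0.41, limma adjusted p = 0.37). The chemokine gene Ccl2 overlapped at 59.7 and 70.2 CPM at 10 min, against 61.7 and 44.3 CPM in mock (0.30, limma adjusted p = 0.45). The interferon-response factor Irf1, named after its values were seen, stood at 39.1 and 39.9 CPM at 10 min, against 41.3 and 40.0 CPM in mock (-0.04, limma adjusted p = 0.91), and had a mean of 350 CPM at 60 min.

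**Figure D5:**
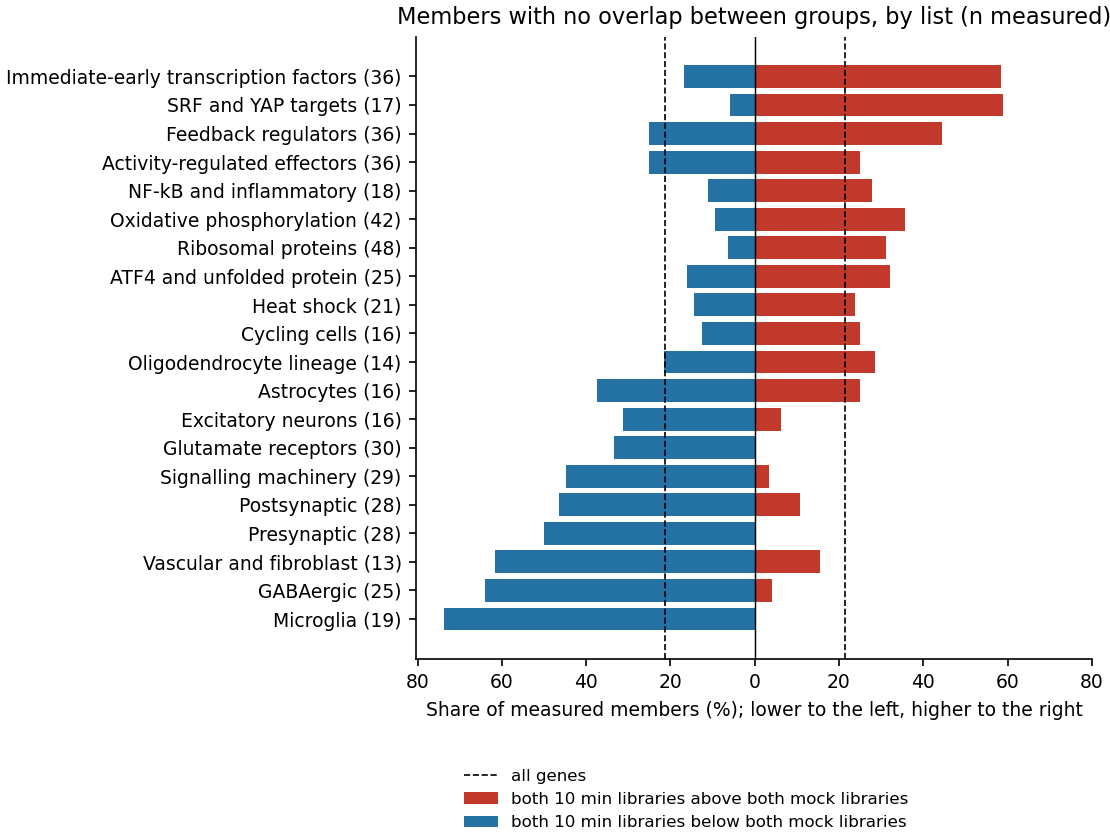
Share of the measured members of each gene list whose 2 libraries at 10 min both lay above (right, red) or both below (left, blue) the 2 mock libraries; dashed lines give the shares over all genes, 21.3% above and 21.4% below. Immediate-early transcription factors (58.3%) and SRF and YAP targets (58.8%) extend furthest to the right, microglia (73.7%) and GABAergic genes (64.0%) furthest to the left.

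The difference of 10 from 5 min uses no mock library, though the mock libraries entered the fit behind its p-values. This comparison called 1 gene higher (0.00861%) and 0 lower (0%). The called gene was Junb, at 119 and 122 CPM at 10 min, against 89.0 and 78.1 CPM at 5 min (log2 difference 0.52, SE 0.06, limma adjusted p = 0.028). Both 10 min libraries of Ier2, Jun, Fos, Zfp36, Cyr61 and Nr4a1 also lay above both 5 min libraries. Their log2 differences were 0.48, 0.46, 0.75, 0.80, 0.83 and 0.61, with limma adjusted p from 0.071 to 0.11. The 5 min means of Fos (84.3 CPM), Zfp36 (25.4 CPM) and Nr4a1 (14.7 CPM) lay below both mock libraries. Those of Cyr61 (29.1 CPM) and Jun (153 CPM) lay between the mock libraries, and that of Ier2 (23.6 CPM) above both. The differences of Fos, Zfp36 and Nr4a1 from 5 min thus began below the mock level. The values of Fos were 159 and 125 CPM at 10 min, against 98.3 and 70.3 CPM at 5 min. The largest differences of all, in Lnc215 (1.32), Dmc1 (1.21), RGD1566401 (1.20) and Vof16 (1.19), went with the 5 min repeats, which stood far apart: RGD1566401 was at 360 and 267 CPM at 10 min, against 220 and 82.2 CPM at 5 min, and at 370 and 276 CPM in mock. Without 5 min replicate 1, 638 genes were called higher and 95 lower, and without 5 min replicate 2, 0 and 0; Junb was also not called without either 10 min, 60 min or 120 min library.

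From 10 to 60 min 430 genes were higher (3.7%) and 224 lower (1.93%) by limma. All 4 genes called at 10 min were among the higher ones: Ier2 by 4.31-fold, Junb by 2.77-fold, Jun by 2.57-fold and Arc by 1.92-fold (limma adjusted p from 7.8e-09 to 7.6e-07 for Ier2, Jun and Arc and 6.9e-09 for Junb). Some genes that had not passed at 10 min went further, Nr4a1 by 8.22-fold, Socs3 by 7.39-fold and Fos by 4.51-fold (limma adjusted p = 3.8e-09, 5.9e-09 and 8.1e-07). Others rose by less than Jun, among them Cebpd by 2.34-fold and Jund by 2.01-fold (limma adjusted p = 1.7e-05 and 5.2e-06). Vgf was 1.11-fold higher and did not pass (limma adjusted p = 0.15). These values share the 10 min libraries with the comparison against mock.

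The authors' deposited table was made from the same 4 libraries and lists more genes at an adjusted p under 0.05, 67 higher and 65 lower (0.577% and 0.56%). All 132 lay in the same direction in the limma fit with no overlap between groups, and the 4 limma calls were among them. Genes named above that the deposited table calls include Cyr61 (adjusted p = 4e-06), Ctgf (2.7e-10), Socs3 (5.6e-07), Cebpd (9.9e-06), Dusp1 (0.018), Zfp36 (0.038) and Egr4 (0.012) on the higher side. On the lower side they include Mrc1 (3.1e-06), Adamts12 (6e-06), C1qa (0.0032), Gabra2 (0.007) and Shank1 (0.02). Egr1 (0.13), Npas4 (0.25) and Atf3 (0.35) are not called there. The deposited table and the limma fit are 2 tests of the same libraries, so neither is a repeat of the other.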

How the data were processed

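RNA sequencing values were taken from the table the authors deposited, which per the file headers holds CPM, reads normalised to library depth, for each library. TopHat2 2.1.0, HTSeq, edgeR, bcl2fastq and the rn6 build are named in the submitters' processing notes. Annotation and strandedness of counting are not stated there, so overlapping genes cannot be told apart. The authors' deposited log2 fold changes and adjusted p-values for 10 min were used only where the text names them. Of the 16 library columns 6 were identical copies of mock values and were not used; 22 rows with a spreadsheet serial number for a symbol were tested and left unnamed. Every CPM was within 0.01 reads of a whole number of reads, from which library totals were computed.

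CPM was divided by trimmed-mean (TMM) factors (30% and 5% trimmed) and taken as log2(CPM + 1). limma 3.58.1 in R 4.3.3, with an intensity trend, 1 mean for each of 5 groups and 5 residual degrees of freedom, gave two-sided tests with Benjamini-Hochberg adjustment over 11615 genes, tested first on simulated data. Printed CPM is TMM-scaled, in the order replicate 1, replicate 2. Printed folds are those of CPM + 1 from the fit. "Separate" means that both libraries of one group lay above both of the other. Lists were described by counts and medians, with no test of a list; 513 of 547 entries in 20 lists were matched by symbol. The members and lists were chosen with earlier results of these data known. Genes named were the called genes, the 12 largest rises and falls with unadjusted p under 0.01, mean CPM of at least 2 and no overlap, up to 4 genes by p of each list, a fixed set of 11, and for 10 against 5 min the called gene and the 4 largest in each direction; further genes are said to be named after their values were seen. Alternatives covered scaling, pseudocount, filter, limma-voom, libraries in the fit, weights, trend, a replicate block and each library left out. Figures were drawn with matplotlib 3.10.9.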

Additional observations from a re-analysis of the deposited data

Results flagged for a closer look

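Junb differed between the effects at 10 and at 5 min by the direct limma test of 10 against 5 min, with a log2 difference of 0.52. Its values were 119 and 122 CPM at 10 min and 89.0 and 78.1 CPM at 5 min. No other gene passed that test in either direction, with limma-voom also calling 1 higher. The adjusted p stayed under 0.05 in 10 of 19 alternative fits and ranged from 0.00012 to 0.26. With 2 libraries a group, no single library could be examined as an outlier.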

How the results depend on the processing

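Against mock, 4 genes were called higher and 0 lower. The higher count was 2 (Junb and Ier2) under library-total scaling, median-of-ratios scaling, pseudocount 5, a filter at mean CPM 2, limma-voom, and a fit of only the 10 min and mock libraries; 0 with no intensity trend; 1 at adjusted p under 0.01; and 9 without the 5 min libraries, where 3 genes were lower (Bc1, Bgn and Plagl1). Leaving out 1 library gave 0 to 9 higher and 0 to 3 lower: 0 higher without 10 min replicate 2, and 9 without either 5 min library. At adjusted p under 0.1, 1 gene was lower. Against 5 min, where 1 was higher and 0 lower, library totals, no trend and adjusted p under 0.01 gave 0 higher, adjusted p under 0.1 gave 77 higher and 4 lower, and leaving out 1 library 0 to 638 higher and 0 to 95 lower. At 60 against 10 min the lower count was 405 under library totals, 350 without the 5 min libraries, 82 at adjusted p under 0.01, 432 at under 0.1 and 75 to 315 with 1 library left out, and the higher count 323 to 516. With 1 library left in a group, it is assumed to vary like the others. The cause of these shifts was not tested.

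The replicate block gave 4 higher (Junb, Jun, Socs3 and Ier2) and 1 lower (Bc1) against mock, and 128 higher and 2 lower against 5 min. Over genes, the deviations of same-numbered 10 min and mock libraries from their group means had a correlation of 0.101. The other pairs of groups ranged from -0.164 (120 min with mock) to 0.273 (5 min with mock). No pairing was taken from these values.

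The median of the later-induced genes under 5 kb was 0.17 from a 1.5-fold cut, 0.28 from a 3-fold cut, 0.14 in the shortest of 4 classes by deposited length, and 0.20 to 0.30 with 1 library left out. For 5 to 20 kb these were 0.057, 0.081, 0.10 in the next length class and 0.013 to 0.089. For 20 to 60 kb the length class after that gave 0.072 and leaving out 1 library -0.048 to 0.010. Over 60 kb the longest length class gave -0.021 and leaving out 1 library -0.055 to 0.0094. By deposited length, the shares separate and above mock were 43.3%, 52.4%, 36.8% and 41.2% from the shortest class to the longest. Unlike the shares by span, they did not fall from class to class. Leaving out libraries here was chosen after seeing the data. Single-gene log2 differences against mock that changed sign with 1 library left out were Bdnf (-0.14 to 0.0061), Aurkb (-0.011 to 0.29), Egr2 (-0.069 to 0.24), Maff (-0.0085 to 0.17), Nptx2 (-0.15 to 0.11), P2ry12 (-0.13 to 0.14) and Tmem119 (-0.093 to 0.16). Of the other single-gene values 2727 kept direction and side of the threshold, 51 lost a call and 29 gained one. Count tests on recovered reads were planned and not run. The read depth limits rare transcripts, and 2 libraries a group limit every p.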
